A study of Mus musculus with 14 samples.

Results

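The genes described here are 10 members of the unfolded protein response and the integrated stress response, followed in whole mouse ovary after dextran sulfate sodium (DSS), a polymer used to inflame the colon of mice. They were taken by gene name from a table of 56748 annotated genes, of which 18006 were high enough to be tested. A total of 11 rows carried a member's name, because Ddit3 was listed under 2 identifiers. The second Ddit3 entry, ENSMUSG00000116429, was listed at 0 in every library and was left aside. All 10 members were among the genes tested.

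The ovaries came from female wild-type (WT) C57BL/6J mice, and the genotype label is WT in every group. The groups were DSS day 89 (n = 4, replicates R29, R38, R78 and R89), control day 89 (n = 3, replicates R123, R124 and R126), DSS day 7 (n = 4, replicates 75, 80, 81 and 82) and control day 7 (n = 3, replicates 10, 51 and 53). The series text places the earlier time at the end of modelling and the later one after 89 days of rest. The sources used here state neither the dose and route of DSS nor the age of the mice. They also do not say whether the libraries of a group are separate animals, and p-values then reflect only how these libraries vary, which may be technical.

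Each library held 15256018 to 18505144 recovered reads. Mitochondrial genes took 14.2% of the reads of DSS day 7 replicate 75, 12.2% of control day 7 replicate 53 and 9.96% of control day 7 replicate 10. The other 11 libraries had 0.479% to 4.04%, so member differences whose call was lost without these 3 libraries are given with and without them. Leaving them out keeps 1 control day 7 library, replicate 51, so that fit cannot tell the mitochondrial share from that library. The tissue label reads ovary, whereas retinas are named in the protocol for extraction. The 7 retina markers examined summed to at most 1.498 FPKM in any library, and the granulosa markers Amh and Inha reached at least 50 and 366 FPKM in every library. FPKM, the unit of all levels below, counts fragments scaled to the length of the gene and the size of the library.

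Secretory cells fold membrane and exported proteins in the endoplasmic reticulum (ER), and unfolded protein there activates the sensors PERK, IRE1 and ATF6. PERK, like other kinases that phosphorylate the translation factor eIF2, slows protein synthesis while favouring translation of ATF4, a transcription factor that turns on amino acid synthesis, amino acid import and the factor CHOP. IRE1 splices the Xbp1 transcript into the form that encodes an active transcription factor, and XBP1 and ATF6 raise chaperones and the machinery that removes misfolded protein. The ovary makes glycoprotein hormones, zona proteins and extracellular matrix, all of which pass through the ER. ATF4 is controlled largely at translation and XBP1 by splicing, and gene-level FPKM reports neither.

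The members fall into an ATF4 side and an ER chaperone side, with Xbp1 between them. On the ATF4 side are Atf4 itself, Ddit3, which encodes CHOP, Trib3, a pseudokinase induced by ATF4 and CHOP, and Asns, which encodes asparagine synthetase. The chaperone side holds Hspa5 (BiP), Hsp90b1 (GRP94), Calr (calreticulin), Pdia4 (a protein disulfide isomerase) and Herpud1, which encodes an ER membrane protein of the degradation machinery and is counted with them here although it is no chaperone. The promoters of 6 members are shown because they carry the elements that usually define each side. The windows are RefSeq promoters of 300 bases on GRCm38.p6, and all 10 members had one. They run from 250 bases before the RefSeq start of the gene to the 50 bases from that start on. The ER stress element ERSE was searched as CCAAT, any 9 bases and CCACG, and the ERSE-II as ATTGG, any 1 base and CCACG. The ATF4 element (CARE) was searched as TGATG, any 1 base and AA, and the XBP1-binding UPRE core as TGACG followed by TGG. Both strands were read, and no match of one element overlapped a match of another.

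An ERSE was found in 3 of the 5 windows of the chaperone side, 2 of them in Hsp90b1, against 0.119% of 32851 RefSeq windows of the same length. The ERSE-II was found in Herpud1, against 0.0365% of windows. A CARE was found in Asns, Trib3 and Herpud1, against 3.97% of windows. No window of a member held the UPRE core, which 0.676% of windows hold, and the windows of Atf4, Ddit3, Xbp1 and Pdia4 held none of these letters. A match is a run of letters and not a measured binding site. In the sequences the capitals mark the matches, and each is printed 5′ to 3′ on the strand of its gene. The windows are chr2:34771840-34772139 (plus strand) for Hspa5, chr10:86705395-86705694 (minus) for Hsp90b1, chr8:84846882-84847181 (minus) for Calr, chr8:94386179-94386478 (plus) for Herpud1, chr6:7693160-7693459 (minus) for Asns and chr2:152344011-152344310 (minus) for Trib3.
Hspa5: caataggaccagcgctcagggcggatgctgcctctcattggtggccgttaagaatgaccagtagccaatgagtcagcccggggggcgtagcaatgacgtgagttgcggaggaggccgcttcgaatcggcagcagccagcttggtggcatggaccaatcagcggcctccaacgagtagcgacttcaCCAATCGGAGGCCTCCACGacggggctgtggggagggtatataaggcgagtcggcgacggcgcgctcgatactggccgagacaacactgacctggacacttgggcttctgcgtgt
Hsp90b1: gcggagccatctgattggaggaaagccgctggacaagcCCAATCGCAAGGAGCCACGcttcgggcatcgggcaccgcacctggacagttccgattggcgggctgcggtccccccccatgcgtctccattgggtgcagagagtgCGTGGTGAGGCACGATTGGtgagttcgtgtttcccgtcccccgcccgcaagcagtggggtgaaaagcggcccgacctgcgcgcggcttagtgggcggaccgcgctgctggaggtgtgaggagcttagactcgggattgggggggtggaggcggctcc
Calr: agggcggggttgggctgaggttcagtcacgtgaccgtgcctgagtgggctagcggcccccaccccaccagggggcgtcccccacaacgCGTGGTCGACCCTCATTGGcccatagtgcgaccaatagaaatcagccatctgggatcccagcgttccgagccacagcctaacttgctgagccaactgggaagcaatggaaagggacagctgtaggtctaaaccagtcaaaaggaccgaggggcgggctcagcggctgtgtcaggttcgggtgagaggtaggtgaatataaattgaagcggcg
Herpud1: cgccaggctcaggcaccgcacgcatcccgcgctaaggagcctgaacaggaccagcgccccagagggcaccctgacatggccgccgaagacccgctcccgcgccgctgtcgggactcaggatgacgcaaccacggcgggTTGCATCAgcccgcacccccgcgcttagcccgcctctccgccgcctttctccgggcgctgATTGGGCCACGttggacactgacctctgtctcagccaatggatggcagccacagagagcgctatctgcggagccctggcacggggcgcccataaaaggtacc
Asns: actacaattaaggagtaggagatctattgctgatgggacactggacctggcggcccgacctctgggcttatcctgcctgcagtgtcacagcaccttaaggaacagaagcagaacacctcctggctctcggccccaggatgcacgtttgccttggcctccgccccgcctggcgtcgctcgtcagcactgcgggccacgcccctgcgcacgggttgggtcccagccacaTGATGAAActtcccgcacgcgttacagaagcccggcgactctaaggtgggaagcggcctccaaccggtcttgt
Trib3: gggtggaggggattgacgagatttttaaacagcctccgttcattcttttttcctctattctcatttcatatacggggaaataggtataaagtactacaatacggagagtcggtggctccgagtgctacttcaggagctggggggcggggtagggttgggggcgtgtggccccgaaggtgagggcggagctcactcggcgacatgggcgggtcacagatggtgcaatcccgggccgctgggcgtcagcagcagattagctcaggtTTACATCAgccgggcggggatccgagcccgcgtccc
The ERSE of Hspa5 spans bases 186 to 204 of its window, shortly before the RefSeq start, and that of Calr lies on the other strand at bases 89 to 107. In Herpud1 the ERSE-II spans bases 199 to 209 and the CARE bases 139 to 146. The CARE of Asns spans bases 228 to 235, before the RefSeq start, and that of Trib3 lies after its RefSeq start, at bases 265 to 272. The GENCODE M21 gene positions given below have other starts for these 3 genes. By those, the ERSE of Hspa5 and the CARE of Asns lie inside the gene, and the CARE of Trib3 lies before it.

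The chaperones were among the higher transcripts of the set. Over the 14 libraries Calr averaged 234 FPKM, Hspa5 201, Hsp90b1 189 and Pdia4 173 FPKM, ahead of Atf4 with 86.8, Xbp1 with 43.6, Ddit3 with 26.9, Herpud1 with 26.8, Asns with 7.59 and Trib3 with 1.84 FPKM. Herpud1 differed least between libraries, 1.43-fold from the lowest to the highest, and Hspa5 most, 5.48-fold. Trib3 rested on as few as 38 reads in a library, so its values are the least precise, whereas Hspa5 never had fewer than 4853 reads.

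**Figure D1:**
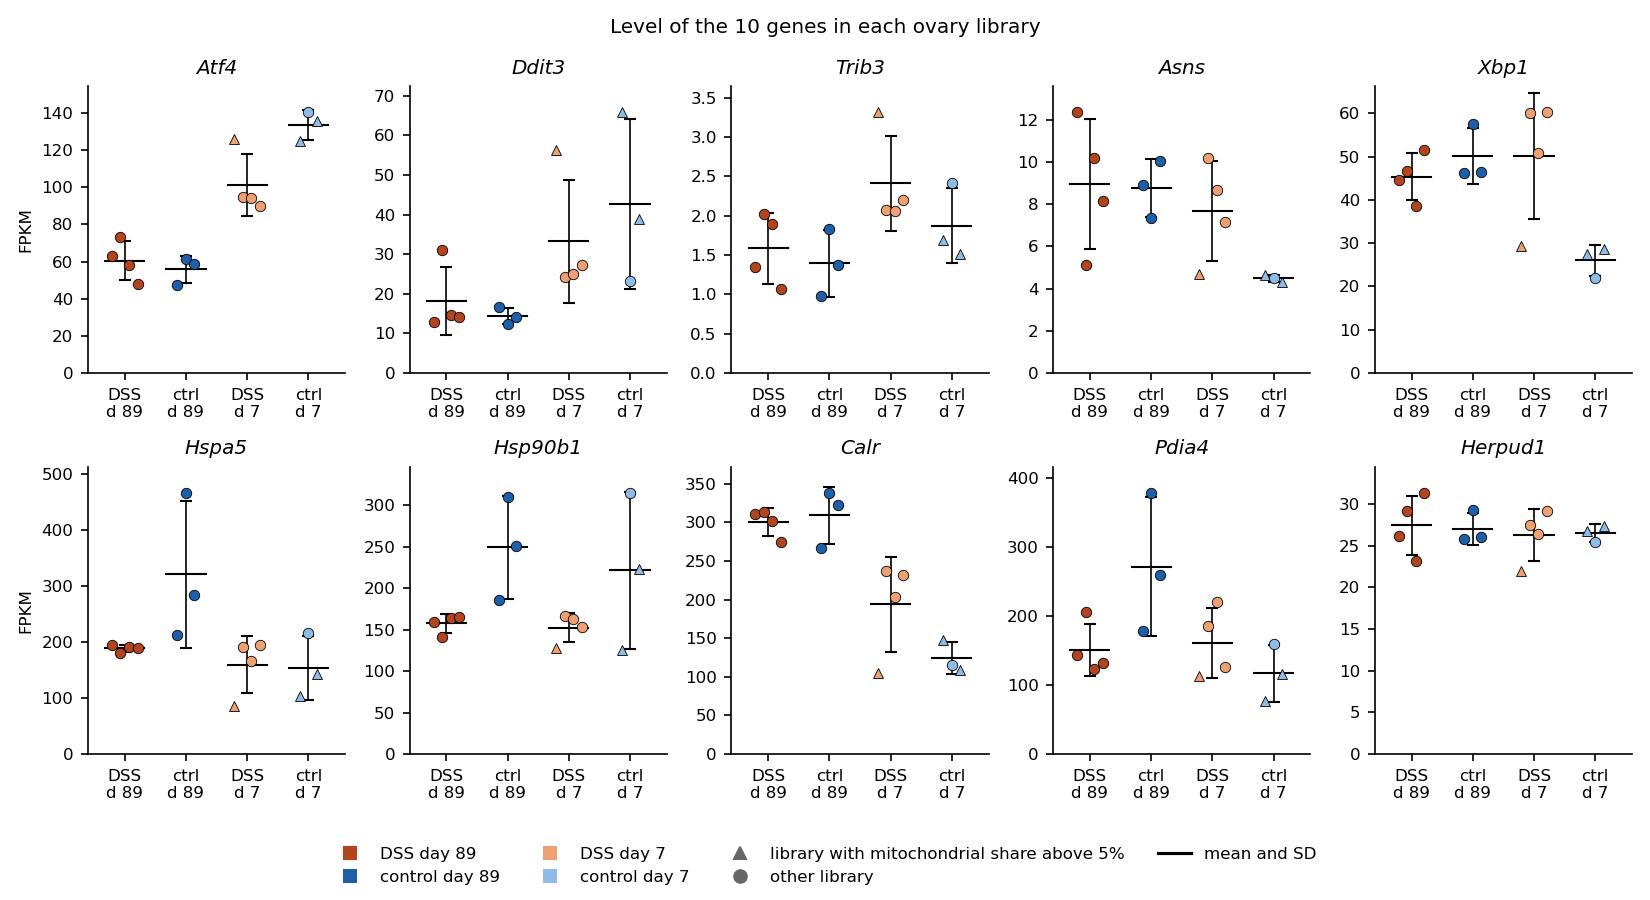
FPKM of each of the 10 genes (vertical axes, from 0) in every library of the 4 groups, with the mean and SD of each group; triangles are the 3 libraries with more than 5% mitochondrial reads. Atf4 sits lower at day 89 than at day 7, Calr sits higher, and Herpud1 is level. Ddit3 sits lower at day 89 except in DSS day 89 replicate R38, which overlaps day 7.

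Between day 7 and day 89, control ovaries lost Atf4 and Ddit3 transcript and gained transcript of 3 chaperones, of Xbp1 and of Asns. By limma on log2(FPKM + 1) with Benjamini-Hochberg adjustment over all genes, 7 of the 10 members passed the threshold of 0.05. Of them 5 were higher at day 89 (Asns, Xbp1, Hspa5, Calr, Pdia4) and 2 lower (Atf4, Ddit3). Change was common in this comparison: 31.8% of all genes tested passed, 16.1% higher and 15.7% lower. In DSS ovaries 2 of the 10 members passed between the same days, Calr higher and Atf4 lower, which is no larger a share than the 21.4% of all genes (10.7% higher and 10.7% lower). Without the 3 libraries of high mitochondrial share control day 7 kept 1 library, replicate 51. The differences in control ovaries were then -1.32 for Atf4, -0.67 for Ddit3, 1.15 for Xbp1 and 1.40 for Calr. They were 0.82 for Asns, 0.49 for Hspa5 and 0.70 for Pdia4. With all libraries and a term for the high mitochondrial share, 2 of the 10 members passed, Calr higher and Atf4 lower. Of all genes 17.4% passed in that fit.

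Cell-type markers also stood at other levels between the days. The 6 luteal markers summed to 1504 to 2301 FPKM in control day 89 against 1073 to 1204 in control day 7. In DSS ovaries they summed to 971 to 2147 FPKM at day 89 against 291 to 1180 at day 7, which overlapped. The 7 oocyte markers summed to 29.5 to 121 FPKM in control day 89 against 119.5 to 240 in control day 7, which overlapped, and to 53.7 to 154 FPKM in DSS day 89 against 271 to 431 in DSS day 7. Their part in the day differences was not tested. Day and any batch of sampling cannot be told apart here, and in whole tissue fewer cells of a type and less RNA per cell cannot be told apart either.

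Atf4 (ENSMUSG00000042406, chr15:80255184-80257541 on GRCm38) encodes the transcription factor at the centre of the integrated stress response. It had 62.9, 73.1, 58.3 and 47.9 FPKM in DSS day 89 libraries and 47.6, 61.4 and 58.7 FPKM in control day 89 libraries. Day 7 values were 125.9, 94.8, 94.1 and 90.0 FPKM in DSS ovaries and 125, 140.5 and 135 FPKM in control ovaries. Every day 89 library was therefore below every day 7 library. Atf4 fell by 1.25 on the log2 scale (SE 0.18, adjusted p = 0.000523) in control ovaries, to 55.9 ± 7.32 FPKM at day 89 against 134 ± 8.08 at day 7 (SD, n = 3 each). In DSS ovaries it fell by 0.73 (SE 0.15, adjusted p = 0.00687), to 60.6 ± 10.5 FPKM at day 89 against 101 ± 16.6 at day 7 (SD, n = 4 each). Both falls passed the test under each of the 24 alternative settings, with adjusted p-values up to 0.00566 and 0.0243.

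Ddit3 (ENSMUSG00000025408, chr10:127290774-127296288) encodes CHOP, a factor linked to cell death under prolonged ER stress. It had 12.9, 31.2, 14.6 and 14.1 FPKM in DSS day 89 libraries and 16.6, 12.4 and 14.2 FPKM in control day 89 libraries. Day 7 libraries had 56.3, 24.3, 25.0 and 27.3 FPKM in DSS ovaries and 65.9, 23.3 and 38.8 FPKM in control ovaries. The 3 highest values of the study were those of the 3 libraries with a high mitochondrial share, and DSS day 89 replicate R38 stood above the other day 89 libraries. Ddit3 fell by 1.39 on the log2 scale (SE 0.40, adjusted p = 0.0172) in control ovaries at day 89 against day 7. Without the 3 libraries, with replicate 51 alone in control day 7, the difference was -0.67. The fall missed the threshold under 4 of 24 alternatives, with differences from -1.3 to -0.66. They included the fit with a term for the high mitochondrial share. They also included leaving out control day 7 replicate 10 (adjusted p = 0.0763) or control day 89 replicate R124 (adjusted p = 0.0536). In DSS ovaries the difference was -0.83 (SE 0.34, adjusted p = 0.0953), and without replicate R38 it was -1.11 (adjusted p = 0.0248).

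The last 68 of the 1713 exonic bases of Ddit3 in GENCODE M21, chr10:127296221-127296288, also belong to an exon of Mars, the methionyl-tRNA synthetase gene on the opposite strand. No source used here states how strand was handled, so reads there cannot be told apart. Mars rose by 0.95 in control ovaries, the opposite direction to Ddit3.

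Trib3 (ENSMUSG00000032715, chr2:152337422-152344032) stayed low in all groups. It had 1.34, 2.03, 1.90 and 1.06 FPKM in DSS day 89 libraries and 0.977, 1.83 and 1.38 FPKM in control day 89 libraries. Day 7 libraries had 3.32, 2.08, 2.06 and 2.20 FPKM in DSS ovaries and 1.69, 2.42 and 1.52 FPKM in control ovaries. In DSS ovaries the days did not overlap, yet the difference of -0.40 (SE 0.18) did not pass (adjusted p = 0.117), and in control ovaries the days overlapped. Of all genes, 24.8% did not overlap between days in DSS ovaries and 45% did not in control ovaries.

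Asns (ENSMUSG00000029752, chr6:7675169-7693254), a textbook target of ATF4, did not follow Atf4. Its levels were 12.4, 5.13, 10.2 and 8.15 FPKM in DSS day 89 libraries and 8.89, 7.32 and 10.04 FPKM in control day 89 libraries. At day 7 they were 4.67, 10.2, 8.65 and 7.16 FPKM in DSS ovaries and 4.65, 4.49 and 4.33 FPKM in control ovaries. Asns was lowest where Atf4 was highest: the control day 7 libraries lay between 4.33 and 4.65 FPKM, and DSS day 7 replicate 75 lay just above them. In control ovaries it rose by 0.82 (SE 0.27, adjusted p = 0.0350) to 8.75 ± 1.37 FPKM at day 89, against 4.49 ± 0.160 at day 7 (SD, n = 3 each). That call was lost under 8 of 24 alternatives, with adjusted p-values from 0.0609 to 0.243, among them leaving out any one of the control day 7 libraries, R123 or R126. Without the 3 libraries of high mitochondrial share, with replicate 51 alone in control day 7, the difference was 0.82. With a term for that share it was 0.55 (adjusted p = 0.243).

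Over the 14 libraries the correlation of Asns was -0.72 with Atf4 and -0.77 with Ddit3 (Pearson r of log2(FPKM + 1)), and 0.76 with Calr. After removal of group means these values were -0.53, -0.67 and 0.51. Atf4 correlated with Trib3 at 0.67, and at 0.83 after removal of group means. These correlations describe libraries that share groups and normalization.

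Xbp1 (ENSMUSG00000020484, chr11:5520659-5525893) encodes the transcription factor activated by IRE1. It had 44.7, 46.7, 38.5 and 51.5 FPKM in DSS day 89 libraries and 46.3, 57.5 and 46.4 FPKM in control day 89 libraries. At day 7 it had 29.4, 60.0, 50.9 and 60.3 FPKM in DSS ovaries and 27.5, 21.9 and 28.6 FPKM in control ovaries. Control day 7 was therefore the one low group, joined by DSS day 7 replicate 75. Xbp1 rose by 0.92 (SE 0.23, adjusted p = 0.00973) in control ovaries, to 50.1 ± 6.45 FPKM at day 89 against 26.0 ± 3.63 at day 7 (SD, n = 3 each). With a term for the high mitochondrial share the difference was 0.70 and did not pass (adjusted p = 0.0883). In DSS ovaries the 95% interval of the difference was -0.53 to 0.34.

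Calr (ENSMUSG00000003814, chr8:84841850-84846934) encodes the ER lectin chaperone that also stores calcium. It had 311, 314, 301 and 274 FPKM in DSS day 89 libraries and 267, 338 and 322 FPKM in control day 89 libraries. At day 7 it had 105, 237, 203 and 232 FPKM in DSS ovaries and 147, 116 and 109 FPKM in control ovaries. No day 89 library was as low as any day 7 library. Calr rose by 1.31 (SE 0.26, adjusted p = 0.00275) in control ovaries, 2.49-fold in mean FPKM, and that call held under each of the 24 alternatives (adjusted p up to 0.0285). In DSS ovaries it rose by 0.69 (SE 0.23, adjusted p = 0.0437), a call lost under 15 of 24 alternatives with adjusted p-values from 0.0503 to 0.0983, among them leaving out any one of the day 89 libraries of either group, DSS day 7 replicates 75 and 81 or control day 7 replicate 53.

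Hspa5 (ENSMUSG00000026864, chr2:34771970-34777547) encodes BiP, the main ER chaperone and a brake on all the ER sensors. It had 194, 181, 191 and 189 FPKM in DSS day 89 libraries and 212, 466 and 285 FPKM in control day 89 libraries. At day 7 it had 85.2, 192, 166 and 194 FPKM in DSS ovaries and 104, 217 and 143 FPKM in control ovaries. The 3 lowest values were those of the 3 libraries with a high mitochondrial share, and the highest was control day 89 replicate R124, whose mitochondrial share of 0.479% was the lowest. Hspa5 rose by 1.04 (SE 0.34, adjusted p = 0.0347) in control ovaries at day 89 against day 7. Without the 3 libraries, with replicate 51 alone in control day 7, the difference was 0.49. The rise did not pass under 8 of 24 alternatives, with differences from 0.39 to 1.09. Among them were the fit with a term for the high mitochondrial share and the fits without any one of R124, R126 and control day 7 replicates 10 and 53. In DSS ovaries the 95% interval of the difference was -0.33 to 0.96.

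Pdia4 (ENSMUSG00000025823, chr6:47796141-47813430) encodes an oxidoreductase that forms disulfide bonds. It had 143, 206, 124.1 and 132 FPKM in DSS day 89 libraries and 178, 379 and 259 FPKM in control day 89 libraries. At day 7 it had 113, 185, 220 and 125.97 FPKM in DSS ovaries and 76.2, 159 and 117 FPKM in control ovaries. R124 was again the highest library and control day 7 replicate 10 the lowest. Pdia4 rose by 1.20 (SE 0.34, adjusted p = 0.0163) in control ovaries at day 89 against day 7, a call lost under 5 of 24 alternatives, including those without R124 and without replicate 10. Without the 3 libraries of high mitochondrial share, with replicate 51 alone in control day 7, the difference was 0.70. With a term for that share it was 0.76 (adjusted p = 0.159). The 95% interval of its difference in DSS ovaries was -0.70 to 0.56.

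Hsp90b1 (ENSMUSG00000020048, chr10:86690209-86705509) encodes GRP94, the ER member of the HSP90 family. It had 159, 141, 164 and 165 FPKM in DSS day 89 libraries and 186, 310 and 251 FPKM in control day 89 libraries. At day 7 it had 127, 166, 162 and 153 FPKM in DSS ovaries and 125.9, 315 and 223 FPKM in control ovaries. Control libraries spread widely at both days and DSS libraries narrowly. The 95% interval of the day difference was -0.36 to 0.83 in control ovaries and -0.46 to 0.57 in DSS ovaries, and neither difference passed.

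Herpud1 (ENSMUSG00000031770, chr8:94386438-94395377), which helps to assemble the degradation complex of the ER membrane, was level. Its group means were 27.4 ± 3.56 FPKM in DSS day 89 (SD, n = 4), 27.0 ± 1.93 in control day 89 (n = 3), 26.3 ± 3.09 in DSS day 7 (n = 4) and 26.5 ± 1.02 in control day 7 (n = 3). The groups overlapped in every comparison. The day difference had a 95% interval of -0.28 to 0.33 in control ovaries and of -0.20 to 0.32 in DSS ovaries.

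**Figure D2:**
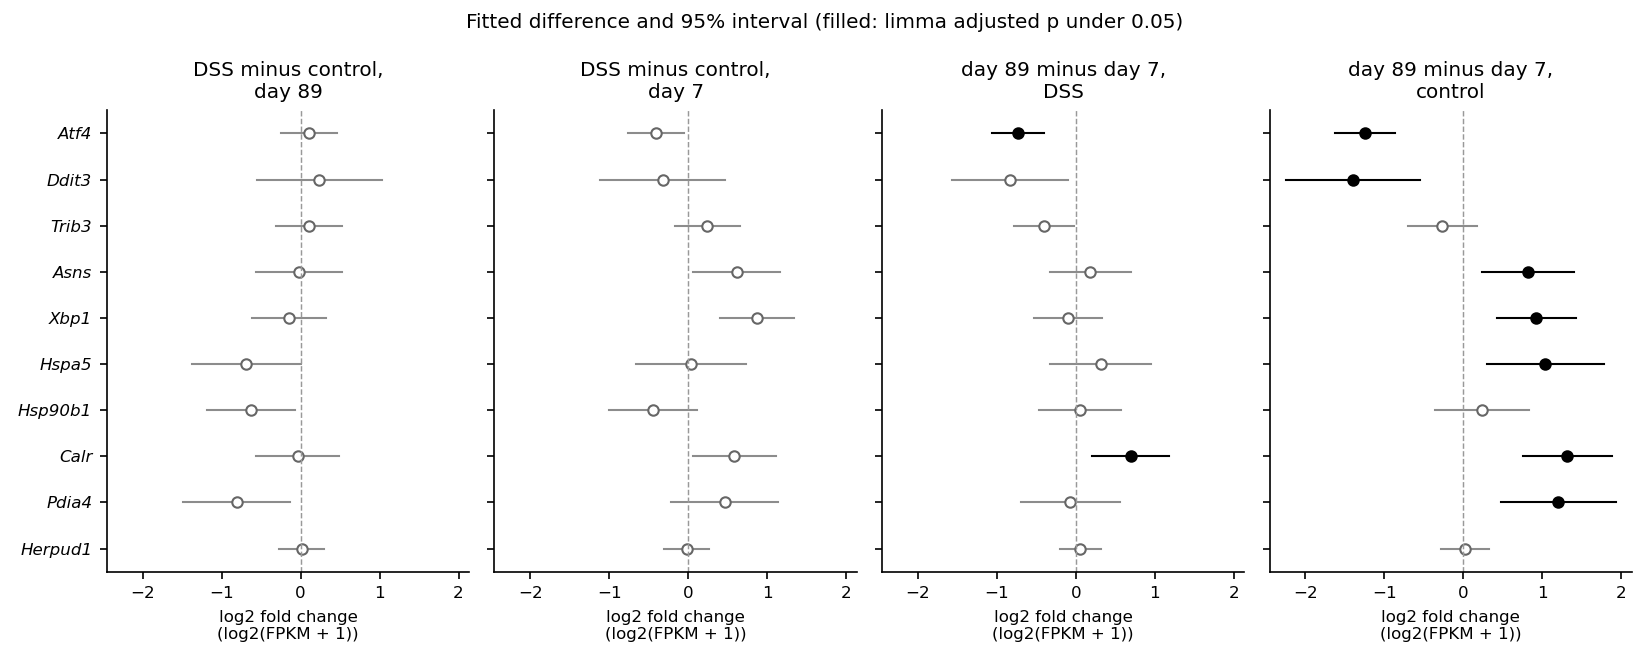
Fitted log2 difference of each gene (horizontal axes, log2(FPKM + 1) scale) with its 95% interval in 4 comparisons; filled points passed the limma test at an adjusted p under 0.05. Filled points appear in the day comparisons, 7 in control ovaries and 2 in DSS ovaries, and in neither DSS comparison.

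At day 7 no member passed between DSS and control ovaries. The closest were Xbp1, Asns and Calr, with higher values in DSS ovaries, and Atf4, with lower ones. By limma 0 of 10 passed after adjustment, where 0.0333% of all genes passed. Voom on recovered reads called 0 of all genes tested, so its 0 among members says nothing about them in particular. An unadjusted p under 0.05 was reached by 4 of 10 members and by 16% of all genes. Xbp1 averaged 50.2 ± 14.5 FPKM in DSS ovaries (n = 4) and 26.0 ± 3.63 in control ovaries (n = 3), a difference of 0.88 (SE 0.22, adjusted p = 0.107). Asns averaged 7.67 ± 2.35 FPKM in DSS ovaries and 4.49 ± 0.160 in control ovaries (0.62, SE 0.26, adjusted p = 0.266). Xbp1 and Asns were the members whose groups did not overlap, both higher in DSS ovaries, and 12.1% of all genes did not overlap. Calr averaged 194 ± 61.3 FPKM in DSS ovaries and 124.1 ± 20.4 in control ovaries (0.58, SE 0.25, adjusted p = 0.269). Atf4 averaged 101 ± 16.6 FPKM in DSS ovaries and 134 ± 8.08 in control ovaries (-0.41, SE 0.17, adjusted p = 0.261).

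These values depended on 1 library. DSS day 7 replicate 75 had Xbp1, Calr, Asns and Atf4 close to the control values, and the other 3 DSS libraries lay apart from all controls for each of the 4 genes. Without it Xbp1 was higher in DSS ovaries by 1.11 (adjusted p = 0.00507) and Calr by 0.85 (adjusted p = 0.0122), both passing, while 1221 genes (6.78%) passed in all against 6 with it. Asns was then higher by 0.81 (adjusted p = 0.0595) and Atf4 lower, at -0.52 (adjusted p = 0.0649). With the 3 libraries of high mitochondrial share all left out and 1 control remaining, Xbp1 and Calr passed as well (1.34 and 0.94) and 915 genes (5.08%) did in all, with the lone control assumed to vary like the other groups.

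Cell-type markers also differed, some of them with the same libraries. The 6 luteal markers summed to 513, 392.5 and 291 FPKM in DSS day 7 replicates 80, 81 and 82 and to 1180 in replicate 75, against 1073 to 1204 FPKM in control day 7. The 6 granulosa markers summed to 1746, 1837 and 2682 FPKM in replicates 80, 81 and 82 and to 566 in replicate 75, against 844 to 1366 FPKM in control day 7. The 5 neutrophil markers summed to 11.3 to 128 FPKM in DSS day 7 against 0.468 to 1.07 in control day 7, with the highest sum in replicate 75, and the 6 macrophage markers to 274 to 356 against 119 to 176 FPKM. The oocyte markers summed to 271 to 431 FPKM in DSS day 7 against 119.5 to 240 in control day 7, and the 5 erythrocyte markers to 410 to 725 against 49.9 to 309 FPKM. Both sums were above every control in replicate 75 too, at 296 and 522 FPKM. The 7 markers of plasma cells, secretory cells rich in Xbp1, summed to 41.9 to 83.2 FPKM in DSS day 7 against 15.9 to 47.7 in control day 7. One of the 7, Derl3, is also in the list of ERAD genes described below, and the other 6 summed to 18.1 to 26.7 FPKM in DSS day 7 against 11.5 to 14.96 in control day 7. Their defining genes Mzb1 and Tnfrsf17 never exceeded 0.635 and 0.486 FPKM and were at 0 in 3 and 5 of the 14 libraries. The part of these cells in the differences was not tested.

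At day 89 no member passed between DSS and control ovaries either. The chaperones Hspa5, Hsp90b1 and Pdia4 had lower values in DSS ovaries, while Calr and Herpud1 had group means of 300.02 against 309 and 27.4 against 27.0 FPKM. By limma 0 of 10 passed, where 0.00555% of all genes passed, and voom again called 0 of all genes. An unadjusted p under 0.05 was reached by 2 of 10 members (Hsp90b1 and Pdia4) and by 4.58% of all genes. Hspa5 averaged 189 ± 5.84 FPKM in DSS ovaries (n = 4) and 321 ± 131 in control ovaries (n = 3), a difference of -0.69 (SE 0.32, adjusted p = 0.924). Hsp90b1 averaged 158 ± 11.3 FPKM in DSS ovaries and 249 ± 62.4 in control ovaries (-0.63, SE 0.26, adjusted p = 0.924). For Hspa5 and Hsp90b1 every DSS library lay below every control library, as 8.29% of all genes did not overlap in one direction or the other. Pdia4 averaged 151 ± 37.2 FPKM in DSS ovaries and 272 ± 101 in control ovaries (-0.81, SE 0.32, adjusted p = 0.924), with overlap through R38. Without R124 the differences were -0.38 for Hspa5, -0.46 for Hsp90b1 and -0.53 for Pdia4. Over 24 alternatives the adjusted p of these 3 differences stayed between 0.578 and 1.

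For Calr the 95% interval of the difference between DSS and control ovaries at day 89 was -0.56 to 0.49, and for Xbp1 it was -0.61 to 0.33. On the ATF4 side it was -0.25 to 0.46 for Atf4 and -0.56 to 1.03 for Ddit3, so the data leave differences of these sizes possible. The 7 plasma cell markers summed to 46.4 to 68.6 FPKM in DSS day 89 against 15.1 to 25.3 in control day 89, and without Derl3 to 22.4 to 54.7 against 7.15 to 10.3 FPKM. The luteal markers summed to 971 to 2147 FPKM in DSS day 89 against 1504 to 2301 in control day 89. Their part in these values was not tested.

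The DSS difference at day 89 was then set against that at day 7 in one fit. No member passed this test by limma (0 of 10, with 3 of 10 at an unadjusted p under 0.05 against 8.45% of all genes). Of all genes 0% passed, by limma or by voom. The members with the smallest p-values were Xbp1 (-1.02, SE 0.31, adjusted p = 0.517), Pdia4 (-1.27, SE 0.45, adjusted p = 0.528) and Atf4 (0.51, SE 0.24, adjusted p = 0.585). Without DSS day 7 replicate 75 the estimate for Xbp1 was -1.25 and passed (adjusted p = 0.0377), when 41 genes (0.228%) passed in all. Because this test is also that of the day difference in DSS ovaries against the day difference in control ovaries, no member was shown to change differently between days in the 2 treatments with all libraries in the fit.

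Within a library, the ATF4 side was set against the chaperone side as the mean centred log2(FPKM + 1) of Atf4, Ddit3, Trib3 and Asns minus that of the 5 chaperone-side genes. The difference averaged -0.23 ± 0.16 in DSS day 89 (n = 4), -0.77 ± 0.32 in control day 89 (n = 3), 0.42 ± 0.50 in DSS day 7 (n = 4) and 0.51 ± 0.42 in control day 7 (n = 3). All day 7 libraries were above 0 and all day 89 libraries below. The 0 is the mean of these same 14 libraries, and the split is not that of every gene. Asns rose between days in control ovaries, opposite to Atf4 and Ddit3, and Herpud1 was level. The 3 libraries with a high mitochondrial share had the highest values, 1.18, 0.96 and 0.46, and R124, with the lowest share, had the lowest, -1.12. The other 4 libraries of day 7 lay between 0.12 and 0.20.

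**Figure D3:**
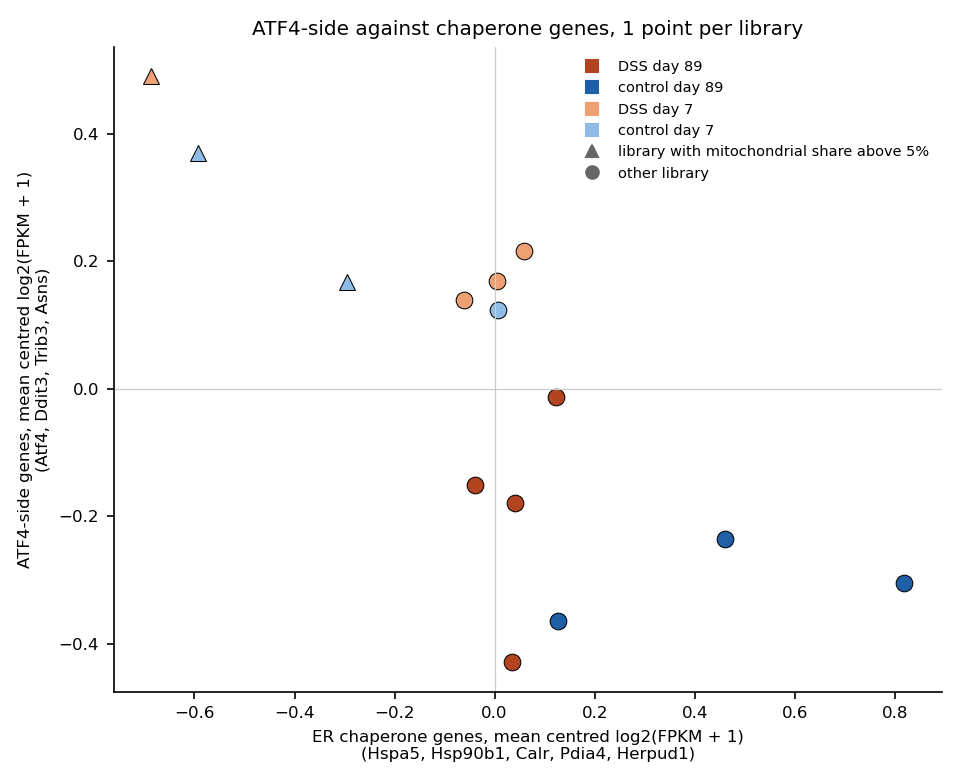
Mean centred log2(FPKM + 1) of the 4 ATF4-side genes (vertical axis) against that of the 5 chaperone-side genes (horizontal axis), 1 point per library, coloured by group; triangles have more than 5% mitochondrial reads. The triangles lie at the upper left, and the control day 89 libraries at the lower right.

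The mitochondrial share followed single members in different ways. Ddit3 was highest and Hspa5 lowest in the 3 libraries with a high share, in DSS and control ovaries alike. Xbp1 and Asns were low in those 3 libraries too, but control day 7 replicate 51, with a share of 1.66%, had the lowest Xbp1 of all, 21.9 FPKM, and 4.49 FPKM of Asns. In the same replicate Atf4 was the highest of the study at 140.5 FPKM. The part of the mitochondrial share in the day differences of Ddit3 and Hspa5 was not tested beyond the fits without these libraries and with a term for them.

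**Figure D4:**
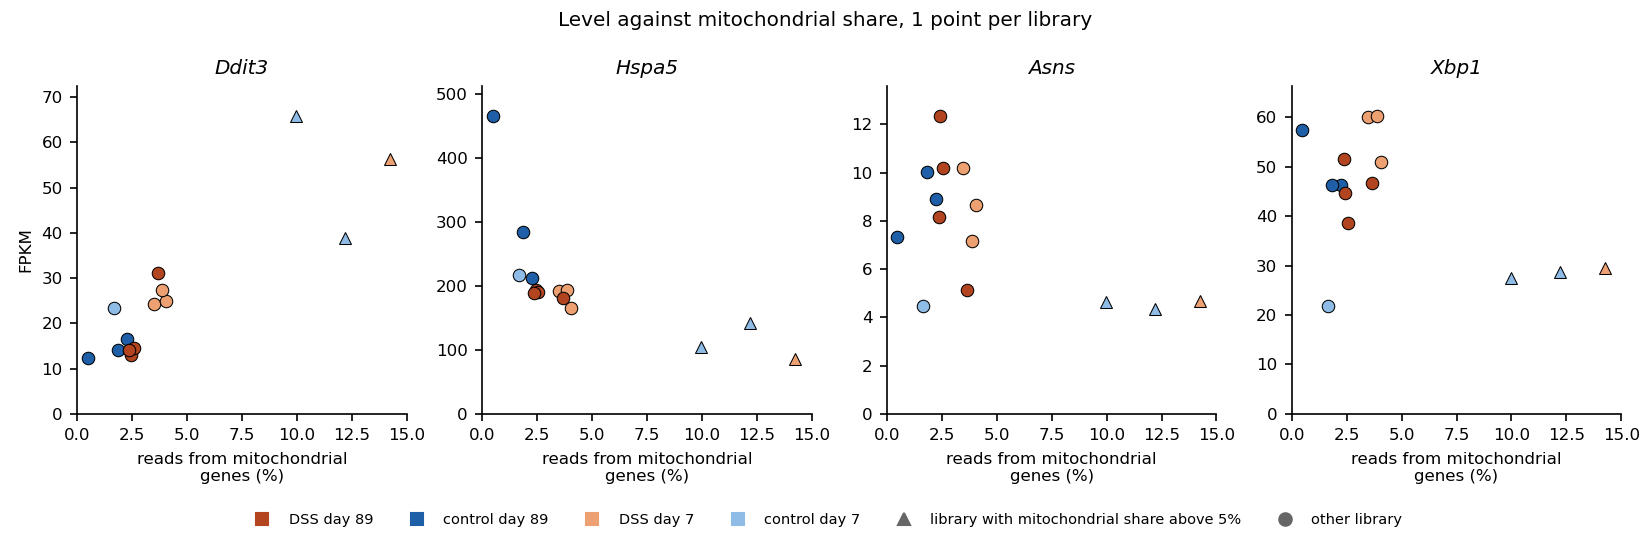
FPKM of Ddit3, Hspa5, Asns and Xbp1 (vertical axes, from 0) against the percentage of reads from mitochondrial genes (horizontal axes), 1 point per library, coloured by group. Control day 7 replicate 51, the circle at 1.66%, has low Asns and Xbp1 without a high mitochondrial share.

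Other genes of the pathway were followed through 5 lists with 97 genes tested: targets of the integrated stress response, aminoacyl-tRNA synthetases, sensors and regulators, ER chaperones and foldases, and the genes of ER-associated degradation (ERAD) and translocation. In neither DSS comparison did a gene of these lists pass by limma, and voom called 0 of all genes in both. At day 7 an unadjusted p under 0.05 was reached by 8, 3, 3, 1 and 8 genes of the lists in that order, against 16% of all genes, and at day 89 by 1, 2, 0, 2 and 1, against 4.58% of all genes. In control ovaries at day 89 against day 7, the sensors and regulators had 9 of 16 genes higher and 0 lower, with a median difference of 0.55. The ER chaperones and foldases had 7 of 20 higher and 0 lower, with a median of 0.51. For all genes tested the median was -0.0048, and 16.1% were higher and 15.7% lower. The median of the chaperones and foldases was 0.08 without the 3 libraries of high mitochondrial share and -0.04 with a term for that share, where that of the sensors was 0.50 and 0.43.

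Named by the smallest p, the sensors that rose in control ovaries included Mbtps1, the protease that activates ATF6, by 0.73 (adjusted p = 0.00585), Ppp1cc, a catalytic subunit of the phosphatase of eIF2, by 0.78 (adjusted p = 0.00875), the ER-bound factor Creb3l1 by 0.87 (adjusted p = 0.0102) and Eif2ak3, which encodes PERK, by 0.95 (adjusted p = 0.0154). Eif2ak3 averaged 6.97 ± 0.781 FPKM in control day 89 and 3.24 ± 1.31 in control day 7. Among chaperones, Uggt1, the glucosyltransferase that marks unfolded glycoproteins, rose by 0.89 (adjusted p = 0.00112). Ppib, a prolyl isomerase, rose by 1.19 (adjusted p = 0.00881), Dnajc3, a BiP co-chaperone, by 0.94 (adjusted p = 0.0157) and Hyou1, a large HSP70-type chaperone, by 1.23 (adjusted p = 0.0161). Without the 3 libraries of high mitochondrial share 5 of 16 sensors and 3 of 20 chaperones passed, all higher and all among the 9 and 7 called with every library, against 17.9% of all genes. Eif2ak3 (0.51, adjusted p = 0.159), Ppp1cc (0.52, adjusted p = 0.174) and Dnajc3 (0.57, adjusted p = 0.172) then did not pass. With a term for that share 3 sensors and 1 chaperone passed (17.4% of all genes), and without R124 5 and 3 (24.9%).

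Of 28 integrated stress response targets tested, 5 were higher and 3 lower in control ovaries at day 89, a share near the 31.8% of all genes. Atf5, a transcription factor translated like ATF4, fell by 1.08 (adjusted p = 0.00139), to 34.5 ± 0.824 FPKM at day 89 against 74.9 ± 14.2 at day 7. Mthfd2, a mitochondrial folate enzyme, fell by 0.72 (adjusted p = 0.00517). The glycine transporter Slc6a9 rose by 1.13 (adjusted p = 0.00446) and Slc3a2, the heavy chain of several amino acid transporters, by 0.79 (adjusted p = 0.00740). Among 12 synthetases 3 were higher and 0 lower, Iars by 1.21 (adjusted p = 0.00177), Mars1 (listed as Mars) by 0.95 (adjusted p = 0.00194) and Eprs by 0.41 (adjusted p = 0.0461), although Eprs stood at -0.08 once a gene length trend was removed from each library. Of 21 ERAD and translocation genes 5 were higher and 5 lower, and the subunits of the Sec61 channel parted. Sec61a1 rose by 1.36 (adjusted p = 0.000972), whereas Sec61g fell by 0.79 (adjusted p = 0.00189) and Sec61b by 0.76 (adjusted p = 0.00576). Sel1l, the partner of the ERAD ubiquitin ligase, rose by 0.92 (adjusted p = 0.00530). Where alternatives lost the call, the difference was 0.46 to 0.55 for Slc3a2, 0.52 for Sel1l and 0.32 to 0.46 for Eprs, besides its -0.08. The fit without the 3 libraries of high mitochondrial share was among these alternatives, with replicate 51 alone in control day 7.

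In DSS ovaries at day 89 against day 7 the same lists gave 1 higher and 2 lower of 28 targets, 0 of 12 synthetases (3 at an unadjusted p under 0.05, 1 higher by voom), 2 higher of 16 sensors, 1 higher of 20 chaperones, and 3 higher and 3 lower of 21 ERAD and translocation genes. Over all genes the shares were 10.7% higher and 10.7% lower, with 36.6% at an unadjusted p under 0.05. The synthetases with the smallest p were Mars1 at 0.42 (adjusted p = 0.0651) and Sars at -0.42 (adjusted p = 0.0702). Nupr1, a stress-induced chromatin protein, fell by 1.92 (adjusted p = 0.0104), Atf5 fell by 0.73 (adjusted p = 0.00884) and Slc6a9 rose by 0.86 (adjusted p = 0.0145). Eif2ak2, which encodes the kinase PKR, rose by 0.63 (adjusted p = 0.0101), Ppp1cc by 0.60 (adjusted p = 0.0246) and Uggt1 by 0.55 (adjusted p = 0.0111). Sec61g fell by 0.51 (adjusted p = 0.0153) and Sec61b by 0.58 (adjusted p = 0.0174). Sel1l rose by 0.67 (adjusted p = 0.0201) and the mannosidase-like Edem1 by 0.64 (adjusted p = 0.0314). Of 24 alternatives, the call was lost under 9 for Edem1, 4 each for Sel1l and Ppp1cc, 3 for Sec61b, 2 for Sec61g and 1 for Uggt1. With the gene length trend removed, 1 of the 6 ERAD and translocation calls remained.

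**Figure D5:**
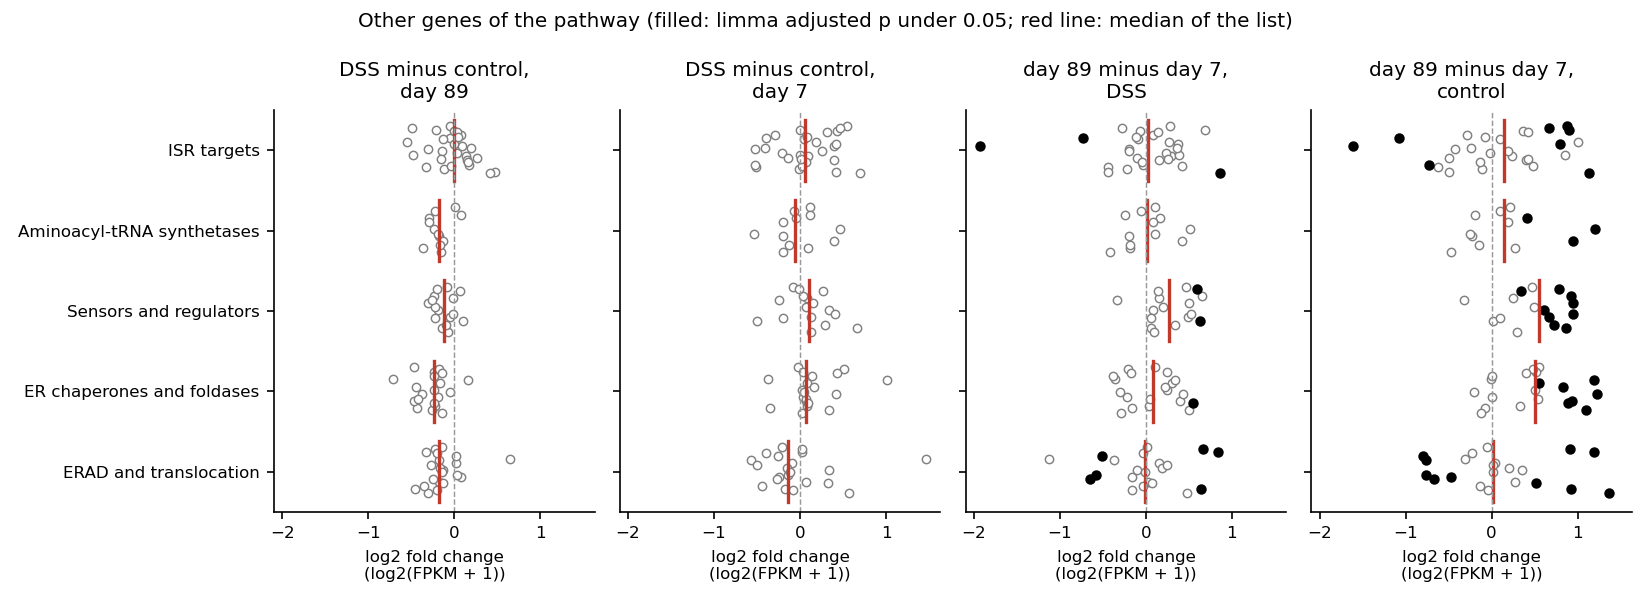
Fitted log2 difference (horizontal axes, log2(FPKM + 1) scale) of every tested gene of 5 pathway lists in 4 comparisons; filled points passed the limma test at an adjusted p under 0.05 and the red line is the median of the list. In control ovaries the filled sensors and chaperones all lie above 0, and in the DSS comparisons no point is filled.

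Among the listed genes, at day 7 the chaperones and foldases had a median difference of 0.07, and Ppib had the smallest p, with 28.5 ± 11.04 FPKM in DSS ovaries and 12.9 ± 2.60 in control ovaries (1.01, adjusted p = 0.133). Txndc5, another disulfide isomerase, followed at 0.43 (adjusted p = 0.338). The synthetase Tars had -0.54 (adjusted p = 0.116) and Mars1 0.40 (adjusted p = 0.266). Among targets Mthfd2 had -0.52 (adjusted p = 0.143) and Slc6a9 0.69 (adjusted p = 0.184), among sensors Eif2ak2 had -0.50 (adjusted p = 0.158) and Creb3l1 0.66 (adjusted p = 0.164). Syvn1, the ERAD ubiquitin ligase, had -0.39 (adjusted p = 0.207) and Sec61a1 0.57 (adjusted p = 0.209). Without replicate 75 of DSS day 7, 3 of 28 targets and 4 of 20 chaperones passed, all higher in DSS ovaries, 1 of 12 synthetases passed lower, and sensors and ERAD genes had 1 higher and 1 lower each, where 6.78% of all genes passed.

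At day 89 only 1 of 20 chaperones and foldases had a value above 0 in DSS ovaries against control ovaries, where 9152 of 18006 genes tested were above 0. The median of these 20 genes was -0.24, and -0.185 without R124. They share the same libraries, so their signs are not independent. The smallest p-values were those of Creld2, an ER stress-induced foldase, at -0.71 and Dnajb11, a BiP co-chaperone, at -0.43, both with an adjusted p of 0.924. Creld2 averaged 42.8 ± 4.35 FPKM in DSS ovaries and 74.4 ± 28.6 in control ovaries. The other lists had medians of 0.0033 (targets), -0.18 (synthetases), -0.12 (sensors) and -0.18 (ERAD and translocation). Phgdh, an enzyme of serine synthesis, had -0.49 and Eif4ebp1, a translation repressor, 0.47, and Eprs and Nars each had -0.30, all with an adjusted p of 0.924. Rtcb, the ligase that joins spliced Xbp1, had -0.25, Eif2ak3 -0.30 (adjusted p = 0.928), Edem1 -0.46 and Sec62 -0.35.

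Among 8520 genes with a mean of at least 5 FPKM, the gene most like the mean of the chaperone side over the 14 libraries was Pdia3, the disulfide isomerase that works with calreticulin (Pearson r 0.97, and 0.95 after removal of group means). Hps5, Tm4sf1, Rmdn3 and Tmem59 followed with r from 0.93 to 0.94. Pdia3 averaged 241 FPKM in DSS day 89, 333 in control day 89, 216 in DSS day 7 and 187 in control day 7. The genes most like the ATF4 side were Rpl36-ps12, a ribosomal protein pseudogene (r 0.98), the translation initiation factor Eif1 (0.97), Timm9 (0.97), Nol7 (0.97) and Atp5g1 (0.96). Reads of a pseudogene may be shared with its parent gene, so Rpl36-ps12 is uncertain.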

How the data were processed

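The authors deposited FPKM values for 14 ovary libraries, 1 column per library, with a gene length. Per the labels' protocols, total RNA and a TruSeq kit were used, and the submitters' processing notes name GRCm38 and HISAT2 2.0.5. Counter, annotation and strand: not given in the sources used here. The deposited FPKM times gene length gave whole reads for 100% of values below 300 reads, within 0.01 of a read, so depth per library could be recovered. Genes with at least 0.5 FPKM in at least 3 libraries were tested as log2(FPKM + 1) with limma 3.58.1 (mean-variance trend) in R 4.3.3, with 1 mean per group over all libraries and Benjamini-Hochberg adjustment at 0.05. Fold changes on this scale understate low genes. The design had named a count test in case of counts; the FPKM test was used.

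The members and lists were chosen with earlier results of these data known. All members are named. From each list up to 4 genes called per comparison, by smallest p, are named, or 2 where none was called, and 5 genes most like each side. Mars is named beside Ddit3 because their exons overlap. Alternatives were another pseudocount (0.1), no filter, a mean of at least 1 FPKM, median-ratio scaling, scaling to recovered reads, voom on recovered reads, only the compared groups, removal of a gene length trend, the mitochondrial share as a term or its 3 high libraries left out, and each library left out. The list counts under these settings were added after the data were seen. The fits were tested on simulated data in which the libraries of a group differed only in depth and random variation. That test says nothing about a library set apart from its group, such as DSS day 7 replicate 75. Gene positions are from GENCODE M21 on GRCm38, because only 1472 of 52125 deposited positions matched it.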

Additional observations from a re-analysis of the deposited data

Results flagged for a closer look

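The 10 members were examined in the 2 groups of 4 libraries, and 4 of these 20 sets had a library set apart from the other 3 by a gap above the 95% limit of the Dixon test for 4 values. Chance would set apart about 1 in 20 independent sets, but these sets share 8 libraries, and 3 of the 4 are the same library, so that rate does not apply to their number. In DSS day 7, replicate 75 stood above the others for Atf4 (125.9 FPKM, the next being 94.8), Ddit3 (56.3 FPKM, the next being 27.3) and Trib3 (3.32 FPKM, the next being 2.20). In DSS day 89, replicate R38 stood above the others for Ddit3 (31.2 FPKM, the next being 14.6). Replicate 75 had a mitochondrial share of 14.2% and R38 one of 3.66%, the highest of its group, and the part of that share in these values was not tested.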

How the results depend on the processing

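Between DSS and control ovaries at day 7 the count of members passing was 2 without the 3 libraries of high mitochondrial share, against 0 with all libraries (915 genes passing in all, against 6), and lay between 0 and 2 as each library was left out, with 2 (Xbp1 and Calr) where DSS day 7 replicate 75 was the one. At day 89 it was 0 under every alternative run. Between the days in control ovaries it was 7, but 2 (Atf4 and Calr) with a term for the mitochondrial share. Without its 3 high libraries 1 control day 7 library was left. The differences were then -0.67 for Ddit3, 0.49 for Hspa5 and 0.70 for Pdia4, against -1.39, 1.04 and 1.20 with all libraries. Asns stood at 0.82 in both, and Atf4, Xbp1 and Calr were no smaller in size. The count was 3 to 7 as each library was left out, the lowest being without control day 7 replicate 10 and 4 without R124. In DSS ovaries it was 2, but 1 (Atf4) with no filter on low values, with scaling to recovered reads, with voom, with only the compared groups and with the term, and 1 to 2 as each library was left out. The difference between both DSS effects gave 0 to 1 (Xbp1 without replicate 75). The within-library contrast of both sides moved by less than 1 SD in every group under the alternatives run. Leaving out 1 library of 3 or 4 cannot move a group mean that far, so those refits say nothing about its stability.

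For 21 of the 50 member differences, recomputed 501 times, 454 values kept their side of the threshold, 41 fell short of it and 6 newly passed. Over all alternatives the 9 member differences that passed never changed sign, whereas 20 of the 41 others did under at least 1, in 60 of 974 values, all of them differences of at most 0.32 in size with every library, and none passing where the sign changed. Of 51 named differences of other pathway genes, 25 lost or gained a call under some alternative, and Eprs between days in control ovaries changed sign, to -0.08, with the gene length trend removed. The cause of these changes was not tested. Where a refit left a group with 1 library, that library was assumed to vary like the others. No paired analysis was possible because the groups share no replicate numbers. With 3 or 4 libraries per group and 1221 genes passing at day 7 without DSS day 7 replicate 75 against 6 with it, the count at day 7 depends on that library, and the low reads of Trib3 limit its values.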
